A study of Mus musculus with 12 samples.

Results

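The genes described here are 10 feedback brakes on mitogen-activated protein (MAP) kinase signalling: the MAP kinase phosphatase genes Dusp1, Dusp2, Dusp4, Dusp5, Dusp6 and Dusp10, the Sprouty genes Spry1, Spry2 and Spry4, and the Sprouty relative Spred1. They were taken by exact symbol from the array's platform annotation, and all 10 were measured, out of 22180 genes named by a probe set of their own. The tissue was aortic vessel from 12 female mice of the outbred CD-1 stock, each hybridised to its own array. Of these, 6 mice received CM-695, an inhibitor of both histone deacetylase 6 and phosphodiesterase 9, intraperitoneally at 80 mg/kg, 2 h and again 1 h before sacrifice, and 6 received saline vehicle. The design text gives vehicle as a single injection, and if vehicle mice had fewer injections, that cannot be told apart from the compound. All mice were perfused with buffered saline before the vessel was taken, and no genotype or age is given in the sources used here.

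MAP kinases carry signals from growth factor receptors and from stress to the nucleus through the ERK, p38 and JNK branches. Dual-specificity phosphatases of the DUSP family switch these kinases off by removing phosphate from both the threonine and the tyrosine of their activation loop. Sprouty and SPRED proteins act further up, between the receptor and RAF. Many of these genes are transcribed in response to the pathway they inhibit, so that their transcripts are often read as a record of recent pathway activity. In the vessel wall the same pathway takes part in smooth muscle and endothelial responses to growth factors and to injury.

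The arrays of both groups were alike in distribution, with medians between 4.69 and 4.74 on the log2 scale, and correlated between 0.957 and 0.977 with each other. All 8 smooth muscle markers and all 8 endothelial markers examined lay above the array median, as did all 10 heart muscle markers, all 8 adipocyte markers and all 8 fibroblast markers. So did all 8 macrophage and all 6 measured neuron and Schwann cell markers, and 4 of 8 skeletal muscle, 5 of 9 lymphocyte and 5 of 6 platelet markers. That is a low bar, since 12908 of the 22180 genes lay at or above it. The mean of the heart muscle markers ran from 7.44 to 9.55 in vehicle mice and from 6.17 to 8.62 in CM-695 mice. Of these 10 markers, 9 had an unadjusted limma p under 0.05, all lower after CM-695, where 9.1% of all genes had such a p. After adjustment over all probe sets, 0 of the 10 passed at 0.05. Smooth muscle means ran from 9.38 to 10.2 after vehicle and from 8.82 to 10.8 after CM-695, where mouse 2 was highest and mouse 3 lowest. Adipocyte means ran from 9.85 to 10.2 after vehicle and from 9.56 to 10.5 after CM-695. Fibroblast means ran from 8.95 to 9.81 and from 8.67 to 9.25. All 8 fibroblast markers lay below 0 in their differences, with a median of -0.49. Of them, 3 had an unadjusted limma p under 0.05 and 0 passed after adjustment. The part of these cell types in the results was not tested beyond the fits with the heart muscle, smooth muscle or adipocyte mean as a covariate. In whole tissue, fewer cells of a type and less RNA per cell cannot be told apart.

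The sequence just upstream of the transcription start is shown for 2 of the genes, Dusp10 and Dusp1. Dusp10 had the largest difference between the groups. Dusp1 had the highest correlation among mice with another of the 10 genes, Spry4, a pair that passed by Pearson's r but not by Spearman's rho. Each sequence is the 250 bases before the RefSeq start of the gene (build GRCm38.p6). It is written 5′ to 3′ along the gene's strand, with motif matches in capitals. The Dusp10 window lies at chr1:184034131-184034380 on the plus strand and the Dusp1 window at chr17:26508473-26508722 on the minus strand.
Dusp10: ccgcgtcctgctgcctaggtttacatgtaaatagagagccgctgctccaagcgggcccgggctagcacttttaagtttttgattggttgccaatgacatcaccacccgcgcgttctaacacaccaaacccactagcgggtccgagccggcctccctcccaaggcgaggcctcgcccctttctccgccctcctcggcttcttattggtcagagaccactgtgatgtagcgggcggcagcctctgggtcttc
Dusp1: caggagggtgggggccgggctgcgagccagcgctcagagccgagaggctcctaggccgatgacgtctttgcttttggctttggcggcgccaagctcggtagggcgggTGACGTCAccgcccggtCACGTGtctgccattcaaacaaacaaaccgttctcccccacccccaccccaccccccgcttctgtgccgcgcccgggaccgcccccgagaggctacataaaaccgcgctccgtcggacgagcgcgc
Capitals mark matches, on either strand, to 5 motifs that were searched: the cAMP response element TGACGTCA, the AP-1 site TGAGTCA, the E-box CACGTG that clock and other basic helix-loop-helix factors bind, the heat shock element core GAANNTTC and the TATA box TATAAA. The Dusp1 window held a cAMP response element, from 143 to 136 bases before the start, and an E-box, from 126 to 121 bases before it, and the matches did not overlap. Of 32851 such windows in the RefSeq table, 1.55% held the first motif and 6.02% the second. The Dusp10 window held none of these letter strings. RefSeq windows were at hand for 8 of the 10 genes, and among the other 6 only Dusp2 held a match, an E-box.

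None of the 10 genes passed the test over all probe sets, and Dusp10 came closest. The comparison asks whether transcripts of the genes that restrain MAP kinases differed about 2 h after the first dose, and is given throughout as CM-695 minus vehicle. With limma and Benjamini-Hochberg adjustment over all 41345 probe sets at a threshold of 0.05, 0 of the 10 were called, against 37 of 22180 genes, or 0.167%, and 64 of the probe sets, or 0.155%. At an unadjusted limma p under 0.05, 1 of the 10 was counted, Dusp10, where 9.1% of all genes were. In 0 of the 10 did the groups separate fully, against 1.08% of all genes. Differences lay above 0 for 5 genes and below 0 for 5, with a median of 0.05 log2, where 55.3% of all genes lay above 0 with a median of 0.02.

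**Figure D1:**
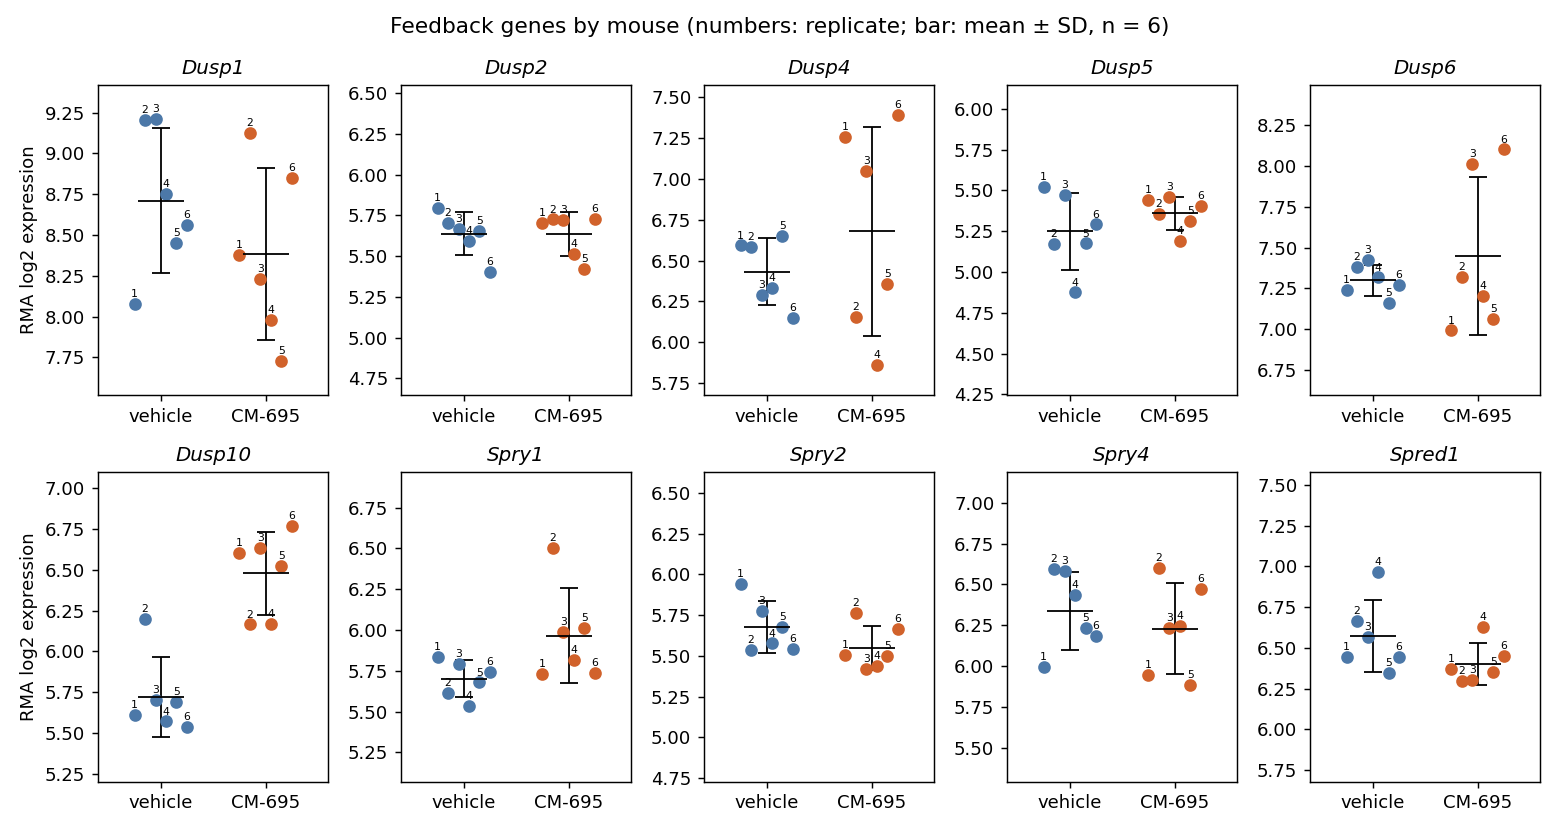
RMA log2 expression (vertical axis) of each of the 10 genes in 6 vehicle mice (blue) and 6 CM-695 mice (orange); numbers are the replicate numbers of the labels, and bars are the mean with SD. Every panel spans the same number of log2 units. Dusp10 lies higher in the CM-695 mice, whose lowest mouse (6.17) is below only vehicle mouse 2 (6.20), and Dusp4 and Dusp6 spread widely among CM-695 mice.

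Dusp10 encodes a phosphatase, also called MKP-5, that acts on p38 and JNK rather than on ERK. It measured 5.54, 5.65 and 6.20 (lowest, median and highest mouse) after vehicle and 6.17, 6.57 and 6.77 after CM-695. Of the CM-695 mice, 4 lay above all vehicle mice, and the other 2, mice 2 and 4 at 6.17 each, lay just below vehicle mouse 2 and above the other 5 vehicle mice. The group means were 5.72 ± 0.25 and 6.48 ± 0.25 (SD, n = 6 each). The difference of 0.76 on the log2 scale (SE 0.14, 95% confidence interval 0.46 to 1.06), or 1.69-fold, had a limma adjusted p of 0.0585 over all probe sets. An exact two-sided permutation test of this gene alone gave p = 0.00649 before any adjustment, where the smallest p that 924 assignments of mice allow is 0.00216.

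The side of the threshold on which Dusp10 fell depended on single mice and on the fit. Among the mice, it turned on vehicle mouse 2, the highest of its group, and on CM-695 mouse 2, 1 of the lowest in its own. Without vehicle mouse 2 the difference was 0.85 (limma adjusted p = 0.0278), and without CM-695 mouse 2 it was 0.82 (adjusted p = 0.0417). Leaving out any other single mouse gave differences of 0.70 to 0.82 with adjusted p above the threshold, up to 0.157. With all mice kept, Dusp10 also passed where fewer features entered the adjustment, with adjusted p = 0.0272 over the brighter probe sets and 0.0274 over 1 probe set per gene. It passed as well with array quality weights and with eBayes with trend and robust. With the heart muscle mean of each mouse as a covariate the difference was 0.93 (SE 0.18, adjusted p = 0.152), and with the smooth muscle mean 0.74 (SE 0.15, adjusted p = 0.0687).

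The phosphatases of the cell nucleus that are induced early after stimulation had other patterns. Dusp1, or MKP-1, which acts on p38, JNK and ERK, measured 8.08, 8.66 and 9.21 after vehicle and 7.73, 8.30 and 9.13 after CM-695. The groups overlapped over most of their range, with 2 CM-695 mice below the lowest vehicle mouse and 2 vehicle mice above the highest CM-695 mouse. The difference was -0.33 (SE 0.25, 95% confidence interval -0.87 to 0.21, limma adjusted p = 0.735), and -0.20 without CM-695 mouse 5. That interval holds values from a level 0.546 times that of vehicle to one 1.16 times it. Dusp2, a phosphatase known mainly from activated immune cells, measured 5.40, 5.66 and 5.79 after vehicle and 5.42, 5.71 and 5.73 after CM-695. Its difference was -0.00 (SE 0.093, 95% confidence interval -0.20 to 0.20), the narrowest of the 10 intervals. Dusp5, a nuclear phosphatase specific for ERK, measured 4.87, 5.23 and 5.52 after vehicle and 5.19, 5.38 and 5.46 after CM-695, a difference of 0.11 (SE 0.11, adjusted p = 0.809), which was 0.03 without vehicle mouse 4 and 0.06 with the heart muscle mean as a covariate. The CM-695 mice lay inside the vehicle range throughout for this gene.

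Dusp4 and Dusp6 spread widely among the CM-695 mice, and the intervals of their mean differences were wide and held 0. Dusp4, or MKP-2, is a nuclear phosphatase of ERK and JNK, and measured 6.15, 6.46 and 6.65 after vehicle. After CM-695, mice 1, 3 and 6 measured 7.26, 7.05 and 7.39, above every vehicle mouse, while mice 2, 4 and 5 measured 6.15, 5.86 and 6.35. The SD was 0.64 in CM-695 mice and 0.20 in vehicle mice, and the mean difference was 0.25 (SE 0.25, 95% confidence interval -0.28 to 0.78, limma adjusted p = 0.805). That difference was 0.10 without CM-695 mouse 6, 0.13 without mouse 1, 0.41 without mouse 4, and 0.45 (SE 0.33) with the heart muscle mean as a covariate. Dusp6, or MKP-3, is the cytoplasmic phosphatase of ERK, and its vehicle mice lay close together at 7.16, 7.29 and 7.42. CM-695 mice 3 and 6 measured 8.01 and 8.10, above the vehicle range, and mice 1 and 5 measured 6.99 and 7.06, below it, with mice 2 and 4 inside it. Here the SD was 0.49 after CM-695 and 0.096 after vehicle, and the mean difference was 0.15 (SE 0.19, 95% confidence interval -0.25 to 0.55, adjusted p = 0.849). It was 0.02 without CM-695 mouse 6, 0.04 without mouse 3, 0.24 without mouse 1 and 0.23 without mouse 5, and 0.38 (SE 0.24) with the heart muscle covariate.

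The ratio of the SDs, CM-695 over vehicle, was 5.08 for Dusp6 and 3.14 for Dusp4. Over all genes the median ratio was 1.08, and 0.374% of genes had a ratio at least as high as that of Dusp6 and 2.18% at least as high as that of Dusp4. These ratios were looked at after the values had been seen and are given as a description, with no test. They were above 1 for 7 of the 10 genes, where 56.2% of all genes had a ratio above 1. The low end was Dusp5, at 0.428. CM-695 mice 3 and 6, high for both phosphatases, also had the highest means of the lymphocyte markers, 5.34 and 5.19, where the other CM-695 mice lay between 4.72 and 5.02 and vehicle mice between 4.56 and 4.91. Of the 9 lymphocyte markers measured, 5 lay above the array median, and the part of such cells in Dusp4 and Dusp6 was not tested. A second probe set for Dusp6 was dim, at 3.28 ± 0.31 after vehicle and 3.12 ± 0.27 after CM-695 (SD, n = 6 each), and its difference had the opposite sign, -0.16 (SE 0.16, adjusted p = 0.804).

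**Figure D2:**
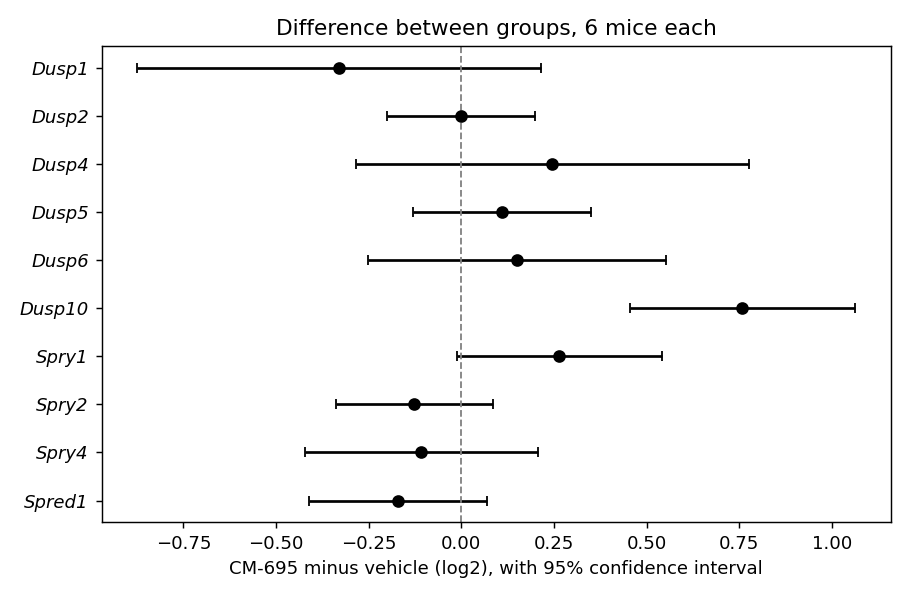
CM-695 minus vehicle on the log2 scale (horizontal axis) for each gene, from the limma fit over 6 mice per group; points are differences and bars 95% confidence intervals. Only the interval of Dusp10, 0.46 to 1.06, lies off 0, and none of the genes passed after adjustment over all probe sets.

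Among the Sprouty genes, Spry1 had the largest difference. Spry1, which encodes a membrane-associated inhibitor of receptor-driven ERK activation, measured 5.54, 5.71 and 5.84 after vehicle and 5.73, 5.90 and 6.50 after CM-695. Of the CM-695 mice, 3 lay above the vehicle range and 3 inside it, and mouse 2 at 6.50 stood well above the next, mouse 5 at 6.01. The difference was 0.26 (SE 0.13, 95% confidence interval -0.01 to 0.54, limma adjusted p = 0.561), and 0.16 without mouse 2 (adjusted p = 0.563). The exact two-sided permutation test of Spry1 alone gave p = 0.0411 before adjustment, 1 of 10 such tests. Spry2, the Sprouty best known for binding the ubiquitin ligase CBL, measured 5.54, 5.63 and 5.94 after vehicle and 5.42, 5.50 and 5.76 after CM-695. There, 4 CM-695 mice lay below the lowest vehicle mouse, yet the difference was small, -0.13 (SE 0.099, 95% confidence interval -0.34 to 0.09, adjusted p = 0.737), and -0.07 without vehicle mouse 1.

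Spry4 and Spred1 had small differences. Spry4, another inhibitor of receptor signalling to ERK, measured 5.99, 6.34 and 6.60 after vehicle and 5.88, 6.24 and 6.60 after CM-695, so that both groups covered nearly the same range (-0.11, SE 0.15, 95% confidence interval -0.42 to 0.21, limma adjusted p = 0.863). With 1 mouse left out the Spry4 difference ran from -0.18, without CM-695 mouse 2 or vehicle mouse 1, to -0.04, without CM-695 mouse 5. Spred1, which brings the RAS inactivator neurofibromin to the membrane, measured 6.35, 6.51 and 6.96 after vehicle and 6.29, 6.36 and 6.63 after CM-695. In this gene mouse 4 was the highest of both groups, and the difference was -0.17 (SE 0.11, 95% confidence interval -0.41 to 0.07, adjusted p = 0.683), or -0.09 without vehicle mouse 4.

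How the genes moved together among mice was examined after the group mean had been taken from each value, which removes the mean shift between the groups, while a response that was uneven among the CM-695 mice still enters. Of 45 pairs, 1 passed after Benjamini-Hochberg adjustment of the permutation p over the pairs, Dusp1 with Spry4. Over the 12 mice their deviations had Pearson's r = 0.887 (permutation p = 0.00082, adjusted p = 0.0369) and Spearman's rho = 0.860 (permutation p = 0.0015, adjusted p = 0.0675), from 100000 shuffles of mice within groups. Vehicle mice 2 and 3 and CM-695 mice 2 and 6 were high for both genes, and vehicle mouse 1 and CM-695 mouse 5 low for both. Without the 2 mice farthest from the median of Dusp1, r was 0.823. Within vehicle mice alone r was 0.976, and within CM-695 mice 0.822, each over 6 mice. With 1 mouse left out r stayed between 0.853 and 0.949, but the adjusted call held in 2 of 12 such repeats, those without CM-695 mouse 1 or 4.

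**Figure D3:**
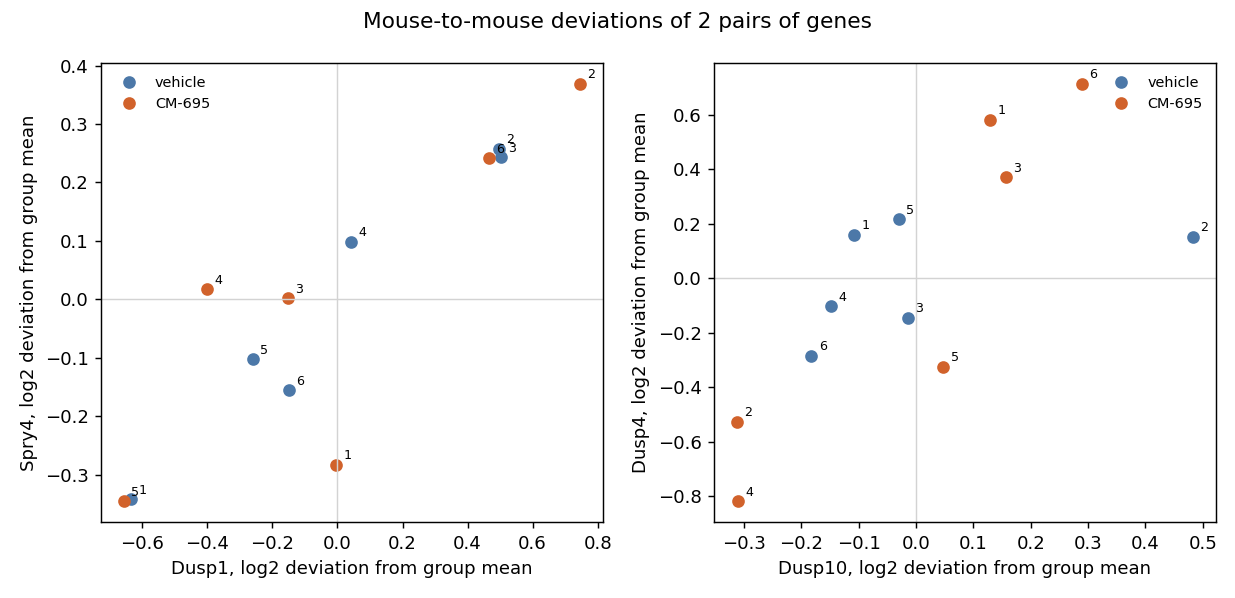
Deviation of each mouse from its group mean, in log2 units, for Dusp1 (horizontal) against Spry4 (vertical) on the left and for Dusp10 against Dusp4 on the right; blue points are vehicle mice, orange points CM-695 mice, and numbers are replicates. The left pair has r = 0.887 over the 12 mice and the right pair r = 0.729.

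The next pair was Dusp4 with Dusp10, both phosphatases with JNK among their substrates, at r = 0.729 (permutation p = 0.00349, adjusted p = 0.0785) and rho = 0.706 (permutation p = 0.023, adjusted p = 0.517). Without the 2 mice farthest from the median of Dusp4 r was 0.585, and without the 2 farthest from that of Dusp10 it was 0.811. Within vehicle mice alone r was 0.477, and within CM-695 mice 0.918, each over 6 mice. Of CM-695 mice, the 3 highest for Dusp4, namely 1, 3 and 6, were also the 3 highest for Dusp10. Over all 45 pairs r ran from -0.689, for Dusp5 with Spred1, to 0.887, with a median of 0.186 and 33 pairs above 0.

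The genes outside the group whose deviations were most like those of Dusp1, among 12908 genes at or above the array median, were Itga7 (r = 0.941, rho = 0.937), Actb (r = 0.930, rho = 0.923) and Map3k20 (r = 0.920, rho = 0.846). Itga7 encodes a laminin-binding integrin subunit of muscle, Actb cytoplasmic beta-actin, and Map3k20 a stress-responsive kinase that acts upstream of p38 and JNK. For Dusp10 they were Pim3 (r = 0.891, rho = 0.825), Taf15 (r = 0.891, rho = 0.895) and Eif4a2 (r = 0.884, rho = 0.881), which encode a serine/threonine kinase, an RNA-binding protein and a translation initiation helicase. These genes were picked as the highest of many, over 12 mice, and the coefficients carry no test. The smooth muscle mean was likewise high in the mice in which Dusp1 was highest, at 10.2 in vehicle mice 2 and 3 and 10.8 and 9.88 in CM-695 mice 2 and 6. The match was not complete. Vehicle mouse 4, also at 10.2, had Dusp1 at 8.75. CM-695 mouse 4, at 9.65, had Dusp1 at 7.98, and CM-695 mouse 3, the lowest at 8.82, had Dusp1 at 8.23. With the smooth muscle mean as a covariate the Dusp1 difference was -0.17 (SE 0.18) and the Spry4 difference -0.01 (SE 0.10). The adipocyte mean as a covariate gave -0.16 (SE 0.19) for Dusp1 and -0.02 (SE 0.11) for Spry4, and the heart muscle mean -0.47 (SE 0.35) and -0.13 (SE 0.20).

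In the pathway around these genes, 1 of 120 measured genes passed over all probe sets, where 37 of 22180 genes, or 0.167%, did. The lists were chosen with earlier results of these data known, so that count is a description only. The gene was Errfi1, which encodes a feedback inhibitor of the epidermal growth factor receptor and was lower after CM-695. Errfi1 measured 8.53, 8.86 and 9.56 after vehicle and 7.22, 7.78 and 8.21 after CM-695, so that every CM-695 mouse lay below every vehicle mouse. It fell by 1.23 on the log2 scale (SE 0.20, limma adjusted p = 0.0341), or to 0.425 times the vehicle level. Leaving out any 1 of 8 mice ended the call, namely vehicle mice 2, 3, 4 and 6 and CM-695 mice 1, 3, 5 and 6 (adjusted p 0.0518 to 0.0876), as did the fit with the heart muscle mean as covariate (difference -1.42, adjusted p = 0.141) and leaving out CM-695 mice 2 and 3 together (-1.11, adjusted p = 0.120), a setting added after seeing the data. Errfi1 passed in 12 of 23 alternatives. Errfi1 belonged to a list of 14 brakes on receptor and RAS signalling, with a median of 0.02 log2. In the same list Rgs2, a regulator of G protein signalling, measured 8.61 ± 0.36 after vehicle and 9.53 ± 0.83 after CM-695 (SD, n = 6 each; 0.93, SE 0.33, adjusted p = 0.391), and Socs1, an inhibitor of cytokine receptor signalling, differed by 0.21 (SE 0.10, adjusted p = 0.558).

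The relatives of the 10 genes held 0 called members. The 5 other MAP kinase phosphatases, counting the inactive relative Styxl1, had a median of 0.12 log2, with Dusp7, an ERK phosphatase of the cytoplasm, at -0.22 (SE 0.12, limma adjusted p = 0.616) and Dusp8, a phosphatase of JNK and p38, at 0.33 (SE 0.24, adjusted p = 0.717). Dusp8 was at 0.11 without CM-695 mouse 2, at 0.07 with the heart muscle covariate and at 0.52 with either the smooth muscle (adjusted p = 0.0771) or the adipocyte one (adjusted p = 0.160), and Dusp7 at -0.08 with the heart muscle covariate and -0.12 without CM-695 mouse 1. The 14 atypical dual-specificity phosphatases, mostly small enzymes without the kinase-binding domain, had a median of -0.03. Dusp18 measured 7.10 ± 0.28 after vehicle and 6.61 ± 0.19 after CM-695, and Dusp14 6.12 ± 0.098 and 5.87 ± 0.11 (SD, n = 6 each), with 5 of 6 CM-695 mice below the vehicle range for Dusp14 (-0.25, SE 0.084, adjusted p = 0.363) and 4 of 6 for Dusp18 (-0.49, SE 0.14, adjusted p = 0.256). Spry3, Spred2 and Spred3 all lay slightly below 0, with Spred2 at -0.12 (SE 0.090) and Spred3 at -0.18 (SE 0.14).

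The kinases that the phosphatases act on, and those above them, had medians near that of all genes. The 14 measured genes of the RAS-ERK cascade had a median of -0.04 log2 with 0 called, led by Map2k5, the kinase above ERK5, at -0.14 (SE 0.098), and Ptpn11, the phosphatase SHP2, at -0.13 (SE 0.090). Of 17 genes of the p38 and JNK cascade, 0 were called and the median was 0.01. At an unadjusted limma p under 0.05, 3 of the 17 were counted, all lower after CM-695, where 9.1% of all genes had such a p. Mapk12, which encodes p38 gamma, an isoform prominent in striated muscle, came closest to the adjusted threshold. It measured 6.59 ± 0.15 after vehicle and 6.05 ± 0.18 after CM-695 (SD, n = 6 each), with 5 of 6 CM-695 mice below the vehicle range (-0.53, SE 0.11, limma adjusted p = 0.0825). Mapk10, the JNK isoform of neurons and heart, differed by -0.75 (SE 0.27, adjusted p = 0.405), and by -0.08 with the heart muscle mean as covariate. Mapk12 differed by -0.60 with that covariate (adjusted p = 0.331), and it passed in 2 of 23 alternatives, with dim probe sets left out (adjusted p = 0.0339) and with 1 probe set per gene (adjusted p = 0.0397).

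Receptors, ligands and ERK-dependent transcripts also held 0 called genes. The 16 receptor tyrosine kinases had a median of -0.06 log2, with Igf1r, the insulin-like growth factor receptor, at -0.33 (SE 0.18), or -0.20 with either the smooth muscle or the adipocyte covariate, and the angiopoietin receptor gene Tek at 0.17 (SE 0.092). Among 20 growth factor genes (median 0.04), Tgfa, a ligand of the epidermal growth factor receptor, differed by 0.23 (SE 0.098, limma adjusted p = 0.508) and Vegfa, the endothelial growth factor, by -0.39 (SE 0.20, adjusted p = 0.599), or by -0.19 either without CM-695 mouse 2 or with the heart muscle covariate. The 17 transcripts known to depend on ERK had a median of -0.04, with the ephrin receptor gene Epha4 at -0.41 (SE 0.13, adjusted p = 0.345), or -0.08 with the heart muscle covariate (adjusted p = 0.925), and the immediate early gene Ier2 at -0.25 (SE 0.14, adjusted p = 0.624), or -0.14 without vehicle mouse 2. Over all 120 pathway genes 59 differences lay above 0 and 61 below, and 7.5% had an unadjusted p under 0.05, beside 9.1% of all genes.

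**Figure D4:**
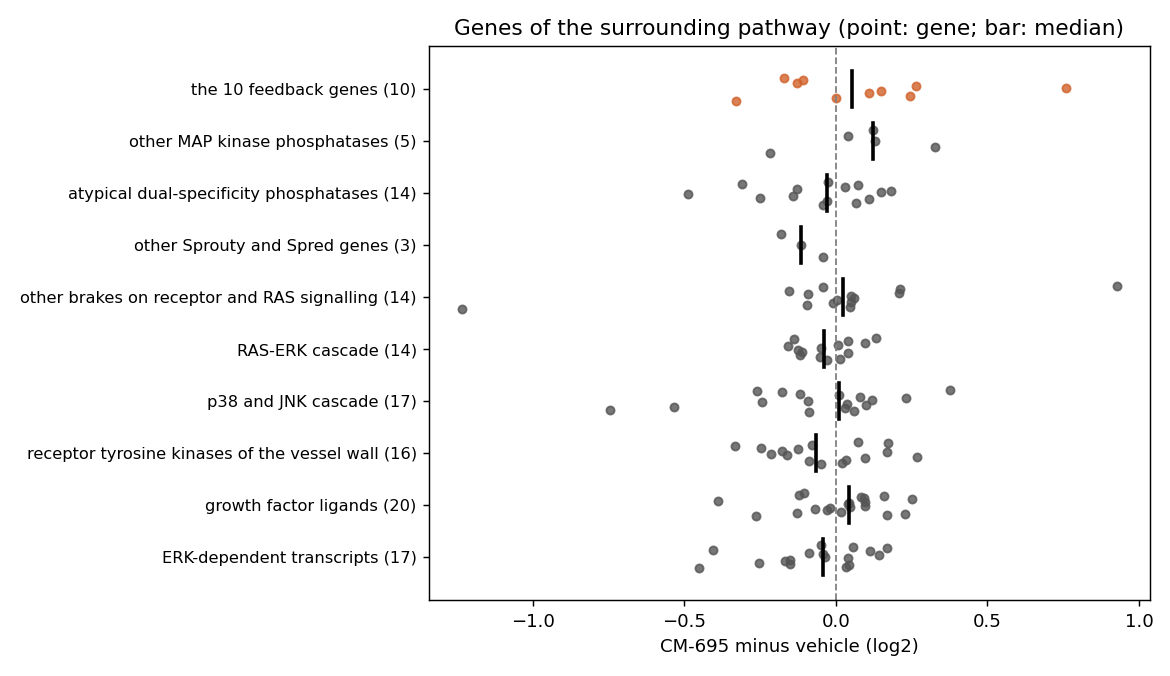
CM-695 minus vehicle on the log2 scale (horizontal axis) for every measured gene of the 10 feedback genes (orange) and of 9 lists of pathway genes (grey), with the number of measured genes in brackets and the median as a bar. Medians lie between -0.12 and 0.12; Errfi1, at -1.23, is the leftmost point and the only 1 that passed, and Rgs2, at 0.93, the rightmost.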

How the data were processed

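The authors deposited log2 expression values per probe set, made with RMA per the submitters' processing notes, for 12 arrays of separate mice. RMA corrects background, normalizes across arrays and summarizes probes; its version is not given in the sources used here. There are no detection calls, and precision is limited by 6 mice a group. Names came from the platform annotation (23521 probe sets with 1 symbol, 1814 with several, 16010 unnamed here). The brightest probe set with a single symbol stood for a gene. Of the 10 genes, Dusp6 had 2 probe sets and the others 1 each.

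All 41345 probe sets entered 1 fit in R 4.3.3 with limma 3.58.1 (group as the only term, empirical Bayes, two-sided, Benjamini-Hochberg, threshold 0.05), which was tested on simulated data. Genes, lists and alternatives were chosen with earlier results of these data known. Named beside the 10 genes are those past the threshold in 9 pathway lists, up to 2 further genes per list with the smallest p, and the 3 genes most alike to Dusp10, which had the smallest p, and to Dusp1. Alternatives were a replicate block, a filter on dim probe sets, other normalizations, array weights, eBayes with trend and robust, marker means as covariates, and leaving out mice. Upstream sequences are RefSeq's (GRCm38.p6).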

Additional observations from a re-analysis of the deposited data

Results flagged for a closer look

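Within the groups, 2 single mice stood apart from the others of their group by the gap between an extreme value and its neighbour relative to the range of the group. Vehicle mouse 2 was the highest of its group for Dusp10, at 6.20, and the gap to the next vehicle mouse took up 0.747 of the vehicle range. CM-695 mouse 2 was the highest of its group for Spry1, at 6.50, with a gap of 0.635 of the range. Such a gap is expected by chance in about 1 of 20 groups, and 20 groups were examined.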

How the results depend on the processing

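The count of the 10 genes past the threshold, 0, became 1 higher (Dusp10) with dim probe sets left out, with array quality weights, with eBayes with trend and robust and with 1 probe set per gene, and ran from 0 to 1 with 1 mouse left out; 0 were lower under any of the 23 alternatives. Dusp10 had a positive difference in all of them, with adjusted p from 0.0272 to 0.233, and passed in 6 of 23. The 64 probe sets past the threshold became 15 with the replicate number as a block, 116 without dim probe sets, and 13, 117 and 113 with the heart muscle, smooth muscle and adipocyte means as covariates, and ran from 22 to 98 with 1 mouse left out. The replicate block left 0 of the 10 genes past the threshold and ended the call of Errfi1 (-1.23, limma adjusted p = 0.150). The labels state no pairing of mice by number. Deviations of same-numbered mice correlated from -0.275 to 0.195, and 2 of the 6 CM-695 mice were most alike to the vehicle mouse of their own number. Such correlations cannot show whether mice were paired. Dusp2, at -0.00, turned to 0.0146, 0.0122 and 0.0151 with quantile normalization repeated and with the smooth muscle and adipocyte means as covariates, and ran from -0.0472 to 0.0419 with 1 mouse left out. The second probe set of Dusp6 gave -0.16. By Spearman's rho 0 of 45 pairs passed, against 1 by Pearson's r, and 0 to 1 with 1 mouse left out. Leaving out CM-695 mice 2 and 3 together, chosen after seeing the data, gave 0 of the 10 genes and 30 probe sets. The causes of these changes were not tested.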
